A study of Mus musculus with 12 samples.

Results

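The immediate early transcription factors of the AP-1 and EGR type were described by 10 genes, which were taken by symbol: Fos, Fosb, Fosl1, Fosl2, Jun, Junb, Jund, Atf3, Egr1 and Myc. All 10 were among the 23420 genes of the count table, and all 10 were among the 11664 genes that passed the filter on low counts and were tested. The rule set no threshold on a measured value. RNA came from 12 kidneys of adult male C57BL/6J mice, in 3 groups of 4, after the middle part of each kidney had been set aside for histology. The control kidneys had been taken at nephrectomy and carry the group label CONTROL. The other 8 kidneys were exposed to 20 min of ischemia, made by tightening a remotely activated clamp on the renal pedicle (the RIRI clamp) after removal of the opposite kidney, and were collected 24 h later. The treatment field of the labels gives this ischemia for the controls too.

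The ischemic kidneys came from mice under ketamine and xylazine anaesthesia or from conscious mice, which had received isoflurane only briefly. Their labels contradict each other. Ischemia set A holds the 4 kidneys titled ISCH_ANESTH, whose group field reads ISCHEMIA conscious, and ischemia set B holds the 4 kidneys titled ISCH_CONCIOUS, whose group field reads ISCHEMIA anesthesia. No direction was therefore assigned to anaesthesia. The clamp, the surgery and the nephrectomy are shared by both sets. Ischemia, surgery, loss of the opposite kidney and time after surgery therefore cannot be told apart in a comparison with the controls. The methods remove the right kidney and clamp the left, so that kidney side may differ as well. It is not stated whether a control kidney came from the same mouse as an ischemic one. The tests set group differences against the spread between these kidneys and treat the kidneys as independent.

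AP-1 is a family of transcription factors that bind DNA as dimers of a Jun protein with a Fos, Jun or ATF protein. Immediate early genes are transcribed within minutes of a stimulus without new protein synthesis, through MAP kinase pathways that act on serum response factor and its ETS partners and on CREB and Jun proteins. Their mRNAs are mostly short-lived, and their proteins pass the stimulus on to later genes. Egr1 is a zinc finger factor induced by the same route, and Myc drives ribosome production, nucleotide synthesis and cell growth. In the kidney, Fos, Jun, Egr1, Atf3 and Myc are known as early responders to ischemia and reperfusion.

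Total counts per kidney lay between 15367342 and 44793350, and 3 counts, taken as the floor of detection, corresponded to 0.0661 to 0.190 CPM. CPM are counts scaled to a common library size, here after TMM normalisation. Of all 11664 genes tested, 22.3% differed between set A and the controls and 22.8% between set B and the controls (edgeR quasi-likelihood test, adjusted p under 0.05). All 7 proximal tubule markers were lower in each set, and Slc34a1, the phosphate transporter of the proximal tubule brush border, fell from 4919 CPM to 421 and 426 CPM. All 5 injury markers were higher in each set. Some transcripts usually abundant in kidney or blood were near 0 throughout: B2m had 0.383 CPM in the controls, and Rps27, Hba-a1 and Hbb-b1 had 0 counts in all 12 kidneys. Among immediate early genes, Ier2 had 0.144 CPM in the controls, and Gadd45b did not exceed 5 counts in any kidney. These check genes were chosen after their values were seen, and their bearing on the 10 factors was not tested.

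Of the 10 factors, 6 were higher in set A than in the controls, 0 were lower and 4 did not pass the threshold, beside 10.5% of all genes tested that were higher. The same 6 factors, Fosl2, Jun, Junb, Egr1, Atf3 and Myc, were higher in set B, beside 10.9% of all genes. The 4 that passed in neither set were Fos, Fosb, Fosl1 and Jund. In these bulk kidney samples a change in RNA per cell cannot be told apart from a change in the share of cells that contain it. The median log2 fold change of the 10 factors was 2.02 for set A, beside -0.016 over all genes tested, and 1.88 for set B, beside -0.018. Both comparisons used the same 4 controls and are not independent. The 6 factors separated the groups fully: every one of the 8 ischemic kidneys lay above every control, which held for 8.44% of all genes tested. Being higher in both comparisons held for 9.07% of all genes.

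**Figure D1:**
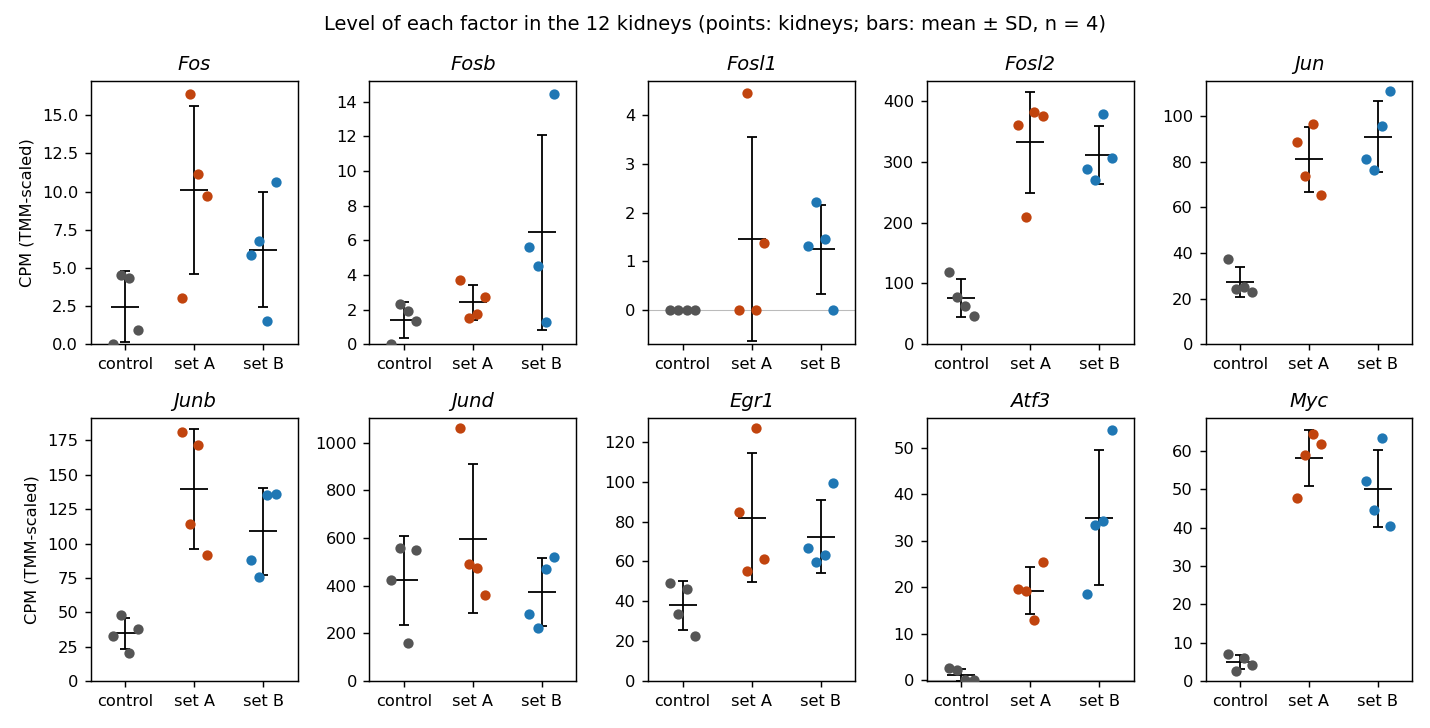
CPM of the 10 factors, 1 panel a gene with its own linear axis, with 1 point for each of the 12 kidneys and bars for the mean ± SD (n = 4) of the controls and of sets A and B. Myc lies between 2.68 and 6.90 CPM in the controls and between 40.3 and 64.4 CPM in the ischemic kidneys, whereas the Jund points of the 3 groups overlap.

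Fosl2, which encodes the Fos family protein FRA-2, was the Fos family gene that passed the threshold. It lies at chr5:32135801-32157842 on the plus strand (mm10). Its level was 119, 77.3, 62.6 and 46.6 CPM in the 4 controls, 361, 209, 382 and 376 CPM in set A, followed by 289, 270, 379 and 306 CPM for set B. All ischemic kidneys lay above all controls, and the second kidney of set A stood below the other 3 of its set. On the log2 scale set A exceeded the controls by 2.12 (SE 0.24, adjusted p = 1.54e-06), and set B exceeded them by 2.03 (SE 0.24, adjusted p = 2.84e-06). These correspond to 4.35-fold and 4.07-fold higher mean CPM.

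Fos, the founding member of the family and a classical immediate early gene at chr12:85473890-85477273, was low in all groups. The controls had 0, 4.55, 4.36 and 0.940 CPM. Set A had 3.05, 16.4, 11.2 and 9.69 CPM, and set B had 5.86, 6.77, 1.498 and 10.7 CPM. In each set 3 of 4 kidneys lay above all controls and the lowest kidney lay within the control range, so that the groups overlapped. For set A the log2 fold change was 2.03 (SE 0.94, adjusted p = 0.143, 95% interval 0.062 to 3.99), and for set B it was 1.32 (SE 0.92, adjusted p = 0.372, interval -0.61 to 3.26). Over 15 alternative fits it ran from 1.63 to 2.96 in set A and from 0.91 to 2.20 in set B. None of these fits passed, with a smallest adjusted p of 0.0504 and 0.149. An exact two-sided permutation test of CPM gave p = 0.0857 for set A and 0.143 for set B, and the smallest p that 4 against 4 kidneys allow is 0.0286.

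Fosb, whose product can replace FOS in AP-1 dimers, lies at chr7:19302696-19310051. It had 0, 2.34, 1.89 and 1.36 CPM in the controls, 3.71, 1.497, 1.74 and 2.71 CPM in set A, and 5.59, 4.49, 1.31 and 14.5 CPM in set B. The fourth kidney of set B was far above all others, while set A was mixed with the controls. Neither log2 fold change passed, with 0.78 for set A (SE 1.05, adjusted p = 0.720) and 2.20 for set B (SE 1.09, adjusted p = 0.171), where it was 1.44 without replicate 4. The counts behind these values ran from 0 to 228 per kidney.

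Fosl1, which encodes FRA-1 and lies at chr19:5447547-5455946, had 0 counts in all 4 controls. Set A had 0, 104, 0 and 23 counts, and set B had 39, 35, 30 and 0 counts. It was therefore found in 5 of 8 ischemic kidneys and in 0 of 4 controls. Against the floor of 3 counts per library, the mean CPM of set A was at least 14.03-fold higher, and that of set B at least 11.97-fold higher. The bound of set A rested on replicate 2, without which it was at least 4.44-fold. Neither difference passed the threshold (adjusted p = 0.0533 and 0.0564). It passed with DESeq2 (adjusted p = 0.00785 for set A, 0.0102 for set B) and with no filter on low counts (0.0424 and 0.0454). It also passed in set A without replicate 1 (0.0458) or replicate 3 (0.0471), both at 0 counts, and in set B without replicate 4 (0.0422), also at 0. Of 15 alternative fits, Fosl1 thus passed in 4 for set A and 3 for set B. The highest adjusted p over these fits was 0.252 and 0.113. The exact permutation test of CPM gave p = 0.429 for set A and 0.143 for set B. Fosl1 is part of a list of ischemia-raised genes that the study drew up from these samples. Its end overlaps the opposite-strand gene Ccdc85b, and the strand setting of the counting is not given in the sources used here.

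Jun, at chr4:95049034-95052222 on the minus strand and without introns, encodes the subunit that is activated by JNK phosphorylation. The controls had 37.2, 24.3, 25.2 and 22.9 CPM, set A had 88.8, 73.8, 96.6 and 65.3 CPM, and set B had 81.3, 76.2, 95.5 and 110.9 CPM. The lowest ischemic kidney lay well above the highest control, and the first control stood above the other 3. Jun was higher by 1.57 on the log2 scale for set A (SE 0.20, adjusted p = 8.39e-06) and by 1.73 for set B (SE 0.20, adjusted p = 2.77e-06), which are 2.96-fold and 3.32-fold higher means.

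Junb, at chr8:84974484-84978718, encodes a Jun protein that can act against JUN at shared sites. It had 33.0, 47.7, 20.6 and 37.9 CPM in the controls, 181, 114, 172 and 91.6 CPM in set A, and 87.9, 75.3, 136 and 136 CPM in set B. The sets overlapped each other and lay apart from the controls. Set A was higher by 2.005 on the log2 scale (SE 0.27, adjusted p = 1.32e-05), or 4.02-fold in mean CPM, and set B by 1.64 (SE 0.27, adjusted p = 1.13e-04), or 3.13-fold. The end of Junb overlaps Prdx2 on the opposite strand, a gene that is also counted.

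Jund, at chr8:70698949-70700616, encodes the Jun protein that is made in most resting cells. It had 422, 559, 158 and 551 CPM in the controls, 1060, 493, 476 and 362 CPM in set A, and 282, 224, 469 and 521 CPM in set B. Control 3 was the lowest kidney and the first kidney of set A the highest, and the 3 groups overlapped. Its log2 fold change was 0.50 for set A (SE 0.35, adjusted p = 0.380, 95% interval -0.23 to 1.23) and -0.17 for set B (SE 0.35, adjusted p = 0.819, interval -0.91 to 0.56). A change of the size seen for Junb in set A (2.005) lay outside both intervals.

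Atf3, an ATF family factor induced by cell stress that often represses its targets, lies at chr1:191170296-191218039. Among the 6 factors that passed, it had the largest fold change in each set with all kidneys fitted. The controls had 2.54, 2.10, 0.116 and 0 CPM, of which the last 2 were at or below the floor, with 3 and 0 counts. Set A had 19.6, 19.2, 12.9 and 25.4 CPM, and set B had 18.6, 33.4, 34.3 and 53.8 CPM. All 8 ischemic kidneys lay above all controls. Against the controls, set A was higher by 4.03 on the log2 scale (SE 0.80, adjusted p = 8.05e-04, 95% interval 2.36 to 5.71) and set B by 4.89 (SE 0.83, adjusted p = 1.73e-04, interval 3.16 to 6.63). Mean CPM was 16.2-fold and 29.4-fold higher. With 1 kidney left out the values ran from 3.60 (without control 4) to 4.67 (without control 1) in set A and from 4.46 to 5.51, without the same controls, in set B, and with limma-trend they were 5.14 and 5.94. Without control 3, Atf3 (3.66) was just below Myc (3.68) in set A.

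Egr1, at chr18:34859823-34864984, encodes a zinc finger factor that binds GC-rich sites. It had 48.9, 33.8, 46.2 and 22.6 CPM in the controls, 84.6, 55.2, 127 and 61.1 CPM in set A, and 66.8, 59.8, 63.2 and 99.4 CPM in set B. Sets A and B overlapped each other and lay apart from the controls, but the lowest ischemic kidney (55.2 CPM) lay close to the highest control (48.9 CPM). Egr1 was higher by 1.12 on the log2 scale for set A (SE 0.28, adjusted p = 0.00537) and by 0.93 for set B (SE 0.28, adjusted p = 0.0180), or 2.16-fold and 1.91-fold higher means. In set B the difference did not pass without control 2 (adjusted p = 0.0555), control 4 (0.0655) or the fourth kidney of set B (0.0606). Egr1 thus had the smallest change of the 6 factors that passed, in both sets.

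Myc, at chr15:61985391-61990374, encodes a helix-loop-helix factor that acts as a dimer with MAX. Its level was 6.90, 2.68, 6.09 and 4.18 CPM in the controls, 47.7, 58.9, 64.4 and 61.7 CPM in set A, and 52.1, 44.7, 63.4 and 40.3 CPM in set B. The lowest ischemic kidney was far above the highest control. Ischemic kidneys exceeded the controls by 3.56 on the log2 scale in set A (SE 0.29, adjusted p = 2.005e-08) and by 3.35 in set B (SE 0.29, adjusted p = 4.16e-08). These were the smallest adjusted p-values among the 10 factors, at 11.7-fold and 10.1-fold higher mean CPM. Its coefficient of variation between kidneys was 38.4% for the controls, 12.6% for set A and 20.2% for set B. For each of Fosl2, Jun, Junb, Atf3, Egr1 and Myc an exact two-sided permutation test of CPM gave p = 0.0286 in each set, the smallest that 4 against 4 kidneys allow.

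**Figure D2:**
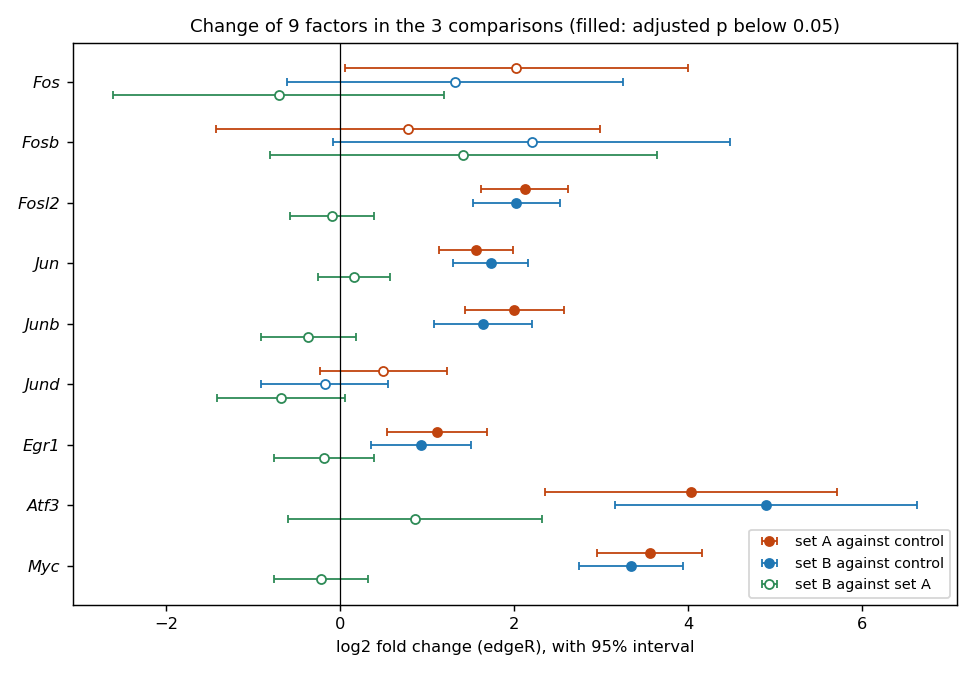
Fitted log2 fold change of 9 factors in the 3 comparisons, with 95% intervals as bars, filled points for adjusted p under 0.05 and a line at 0; Fosl1 is left out because all its controls are at 0 counts. Against the controls the intervals of Atf3, Myc, Fosl2, Junb, Jun and Egr1 lie above 0 for each set, and between the sets the intervals of all 9 factors span 0.

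Between the 2 ischemia sets, 0 of the 10 factors passed the threshold with edgeR, DESeq2 or limma, beside 0.00857% of all genes tested (1 gene) with edgeR, and 0 had an unadjusted p under 0.05 with any of these tools. With the 2 sets fitted alone, Jund and Atf3 had an unadjusted p under 0.05 (0.0327 and 0.0162), and Jund did so with no filter on low counts (0.0220), without replicate 4 of set A (0.0318) and without replicate 4 of set B (0.0272), while 0 factors passed after adjustment in these fits. For 0 factors did all kidneys of set B lie above or below all kidneys of set A, which occurred for 1.29% and 1.32% of all genes. The log2 difference of set B minus set A was 0.86 for Atf3 (95% interval -0.60 to 2.32), 0.16 for Jun (-0.25 to 0.58) and -0.09 for Fosl2 (-0.58 to 0.39). It was -0.36 for Junb (-0.91 to 0.18), -0.18 for Egr1 (-0.75 to 0.39) and -0.21 for Myc (-0.75 to 0.33). For these 5 factors other than Atf3, differences of 1 or more on the log2 scale lay outside the intervals. The intervals were wider for Fos (-2.61 to 1.20) and Fosb (-0.81 to 3.64). For Fos, Fosb and Atf3 a difference of 1 on the log2 scale was not excluded. The same held for Jund (-0.68, interval -1.41 to 0.058) and Fosl1 (-0.23, interval -4.90 to 4.45). Jund had the smallest unadjusted p (0.0689, edgeR), at 598 ± 313 CPM for set A against 374 ± 143 CPM for set B (SD, n = 4).

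Levels of different genes were compared as CPM per kb of exon. For Jund the GENCODE exon length was 1668 bases, while its RefSeq start lies upstream of that gene. The annotation used for counting is not given, and how far the level of Jund depends on this length was not tested. In the controls Jund led with 253 ± 112 CPM per kb (SD, n = 4), and its lowest kidney lay above the highest value of any other factor. Junb followed with 15.1 ± 4.90 CPM per kb, then Jun with 8.59 ± 2.06, Egr1 with 8.45 ± 2.71 and Fosl2 with 7.89 ± 3.21. These 4 neighbours overlapped in their ranges. Myc (1.83 ± 0.70) came after a gap below Fosl2, and Fos (1.05 ± 0.99), Atf3 (0.553 ± 0.613), Fosb (0.224 ± 0.162) and Fosl1 (0) followed with overlapping ranges. In set A the order was Jund (358), Junb (60.7), Fosl2 (34.3), Jun (25.4), Myc (21.4), Egr1 (18.3), Atf3 (8.95), Fos (4.29), Fosl1 (0.717) and Fosb (0.387), in mean CPM per kb. The ranges of Jund, Junb and Fosl2 were separate there, and those of Fosl2, Jun, Myc and Egr1 ran into each other. In set B, Myc (18.5 CPM per kb), Atf3 (16.3) and Egr1 (16.1) overlapped and lay above Fos (2.63). The range of Jun (28.5) was separate from that of Myc and overlapped that of Atf3. By mean level, Myc held rank 6 of the 10 factors in the controls and rank 5 in each ischemia set.

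Within the Fos family, the summed level in CPM per kb was 9.16 ± 2.90 for the controls, 39.7 ± 6.28 for set A and 36.4 ± 3.81 for set B (SD, n = 4). Fosl2 made up most of it in all groups, with 85.3% ± 11.4 of the controls' sum, 85.4% ± 11.01 of that of set A and 88.0% ± 5.95 of that of set B. Within the Jun family, Jund made up 90.3% ± 3.74 in the controls, with a range of 84.9% to 93.3%. Its share was 79.3% ± 5.18 for set A (73.1% to 85.6%) and 74.0% ± 3.03 for set B (70.3% to 76.9%), so that set A overlapped the controls and set B lay below them. In the same order of groups, the share of Junb was 5.88% ± 1.48, 14.4% ± 3.54 and 16.01% ± 1.09, and that of Jun was 3.85% ± 2.38, 6.29% ± 1.81 and 10.02% ± 2.08. The summed Jun family level was 277 ± 117, 444 ± 204 and 300.2 ± 104 CPM per kb. These shares are a description and were not tested, and those of the Jun family rest on the exon length used for Jund.

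**Figure D3:**
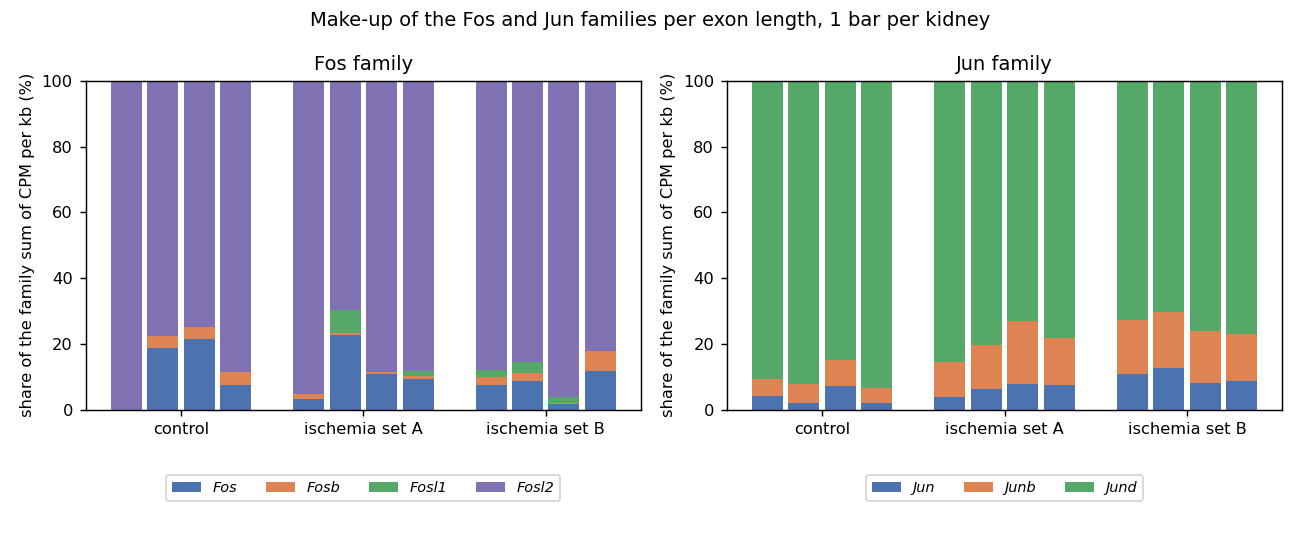
Share (%) of each gene in the summed CPM per kb of the Fos family and of the Jun family, as 1 stacked bar for each kidney, by group. On average Fosl2 holds 85.3% to 88.0% of the Fos family in all 3 groups, and Jund holds 90.3% of the Jun family in the controls and 79.3% and 74.0% in sets A and B.

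Sequences upstream of the start sites are given for 3 factors that rose (Jun, Junb and Atf3) and for Fos, which did not pass the threshold, to show the response elements known for this class of genes beside their values above. Each is the 250 bases before the RefSeq start (GRCm38.p6), read 5′ to 3′ on the strand of the gene, and capitals mark the motifs named after them. RefSeq promoters were matched for 7 of the 10 factors, and those of Fosl1, Egr1 and Myc were not matched. The region is chr12:85473640-85473889 (plus strand) for Fos, chr4:95052223-95052472 (minus) for Jun, chr8:84978749-84978998 (minus) for Junb and chr1:191183334-191183583 (minus) for Atf3.
Fos: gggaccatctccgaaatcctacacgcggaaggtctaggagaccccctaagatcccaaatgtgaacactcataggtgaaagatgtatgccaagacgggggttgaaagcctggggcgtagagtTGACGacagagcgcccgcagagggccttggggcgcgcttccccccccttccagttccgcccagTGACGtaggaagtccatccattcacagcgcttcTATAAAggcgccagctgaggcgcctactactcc
Jun: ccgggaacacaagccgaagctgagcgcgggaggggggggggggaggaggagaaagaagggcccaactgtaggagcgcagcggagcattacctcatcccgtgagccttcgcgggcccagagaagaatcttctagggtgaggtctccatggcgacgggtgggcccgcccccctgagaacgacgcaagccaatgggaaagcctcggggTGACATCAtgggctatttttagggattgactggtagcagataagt
Junb: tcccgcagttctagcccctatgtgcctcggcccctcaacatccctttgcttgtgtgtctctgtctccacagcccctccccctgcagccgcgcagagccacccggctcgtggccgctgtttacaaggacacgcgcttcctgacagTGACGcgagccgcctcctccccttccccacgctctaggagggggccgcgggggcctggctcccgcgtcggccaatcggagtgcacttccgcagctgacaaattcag
Atf3: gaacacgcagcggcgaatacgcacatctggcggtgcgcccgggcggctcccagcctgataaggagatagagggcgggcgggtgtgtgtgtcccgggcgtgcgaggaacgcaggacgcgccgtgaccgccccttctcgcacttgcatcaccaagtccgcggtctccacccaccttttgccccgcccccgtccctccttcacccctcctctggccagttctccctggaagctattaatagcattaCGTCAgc

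The Fos sequence holds TATAAA at -33 to -28 and TGACG, the first part of the cAMP response element TGACGTCA, at -129 to -125 and -66 to -62, counted from the start site. The Jun sequence holds TGACATCA, a variant of that element, at -45 to -38. Junb holds TGACG at -106 to -102, and Atf3 holds it on the opposite strand at -7 to -3. Of the promoters not printed, Fosb and Fosl2 hold GCGNGGGCG, the site bound by EGR proteins, at -50 to -42 and -79 to -71, and Fosb also holds TGACG at -60 to -56. For Fosl2 these bases are annotated as exon of another transcript. Exon annotation also covers 7 bases of the Atf3 window and 6 of the Fosb window. Whether the 7 bases include the Atf3 match was not examined. Both strands were searched, and TGACG overlaps TGACGTCA where that occurs. Over 32851 mouse promoters of this length, TGACG occurred in 17.8%, TGACATCA in 2.93%, TATAAA in 12.4%, GCGNGGGCG in 4.7%, TGACGTCA in 1.55%, the AP-1 site TGANTCA in 6.75%, the E-box CACGTG in 6.02% and the CArG box in 1.47%. The full AP-1 site, the full TGACGTCA, the E-box and the CArG box were not found in these windows of Fos, Fosb, Fosl2, Jun, Junb and Atf3. The RefSeq start matched for Jund lies upstream of the mm10 gene given above, so its window was not read. The start used for Atf3 lies inside the mm10 gene, at a downstream start site. A match is a description of letters, in factors that rose and in Fos alike.

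Other genes of the same pathways were read from fixed lists, and counts are given beside the 10.5% (set A) and 10.9% (set B) of all genes that were higher and the 11.7% and 11.9% that were lower. The dimer partners of AP-1 and related bZIP repressors had 14 tested genes, of which 2 were higher and 2 lower in set A and 3 higher and 1 lower in set B, with medians of 0.40 and 0.35. Atf4, the effector of the integrated stress response, rose from 72.6 ± 4.79 CPM to 186 ± 49.96 for set A and 178 ± 39.3 for set B (SD, n = 4), with log2 fold changes of 1.36 and 1.30 (adjusted p = 1.59e-05 and 2.79e-05, edgeR). Maf, a bZIP factor, fell from 3094 ± 410 CPM to 1270 ± 143 and 1376 ± 371 (log2 fold change -1.29 and -1.17). Crem, a regulator of cAMP response, rose by 1.04 and 0.90 on the log2 scale, and its call in set B (adjusted p = 0.0269) was lost without control 2, control 3 or the fourth kidney of set B (0.0542, 0.0867 and 0.0713).

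In the EGR family and its corepressors, 2 of 5 tested genes were higher in each set and 0 were lower. Egr2, the paralogue of Egr1, rose from 3.90 ± 2.64 CPM to 55.02 ± 23.1 and 39.5 ± 9.79, with log2 fold changes of 3.83 (SE 0.48) and 3.35 (SE 0.47). This was larger than the 1.12 and 0.93 of Egr1, and the difference between the genes was not tested. Wt1, a related zinc finger factor of podocytes, had log2 fold changes of 0.74 and 0.80 (adjusted p = 0.0400 and 0.0260), but set A did not pass without control 2, 3 or 4 or its replicate 1, 3 or 4 (0.0570 to 0.147), nor set B without control 2 or 3 or its replicate 3 or 4 (0.0548 to 0.0813). With limma-trend the set A call of Wt1 was lost as well (adjusted p = 0.0665). Of 4 podocyte markers, 2 were higher in each set: Podxl by 0.87 and 0.65 on the log2 scale (adjusted p = 0.00153 and 0.0142, the latter 0.0506 without control 4) and Synpo by 0.80 and 0.68 (0.0154 and 0.0375). The call of Synpo was lost in set A without control 4 or its replicate 3 (0.0583 and 0.0691), and in set B without control 1, 3 or 4 or its replicate 3 or 4 (0.0530 to 0.137). Their part in the values of Wt1 was not tested. Nab2, a corepressor of EGR proteins, did not pass (0.80 and 0.72, adjusted p = 0.202 and 0.252).

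Among 33 other immediate early genes tested, 16 were higher and 1 lower in set A and 15 were higher and 2 lower in set B, with medians of 1.24 and 0.85. Klf6, a zinc finger factor, rose from 23.2 ± 6.48 CPM to 167 ± 45.7 and 185 ± 38.4 (log2 fold change 2.85 and 2.999). Socs3, the feedback inhibitor of STAT3 signalling, rose by 3.39 and 2.86, and Nfkbiz, an NF-kB cofactor, by 2.70 in each set on the log2 scale (3.35 in each without control 3). Klf4 rose by 2.33 and 1.77 and the antiproliferative gene Btg2 by 1.84 and 1.58. Other classical members of the class did not pass: Nr4a1, an orphan nuclear receptor, had 2.10 ± 1.85 CPM in the controls and 6.21 ± 3.84 and 5.77 ± 6.24 in the sets (adjusted p = 0.328 and 0.364), and Zfp36, which destabilises early mRNAs, had log2 fold changes of -0.30 and -0.21. Ier3 did not pass either (adjusted p = 0.214 and 0.100), although it did in set B with DESeq2 (0.0339). Dusp1, an early gene and MAP kinase phosphatase, fell from 245 ± 55.1 CPM to 155 ± 56.3 and 156 ± 38.8 (log2 fold change -0.66 and -0.65, adjusted p = 0.0376 and 0.0398), and these calls were lost without control 1 or 4 and without replicate 1, 2 or 3 of set A (0.0971 to 0.137) or replicate 1, 3 or 4 of set B (0.0625 to 0.144), and narrowly with the filter on CPM (0.0502 and 0.0516).

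**Figure D4:**
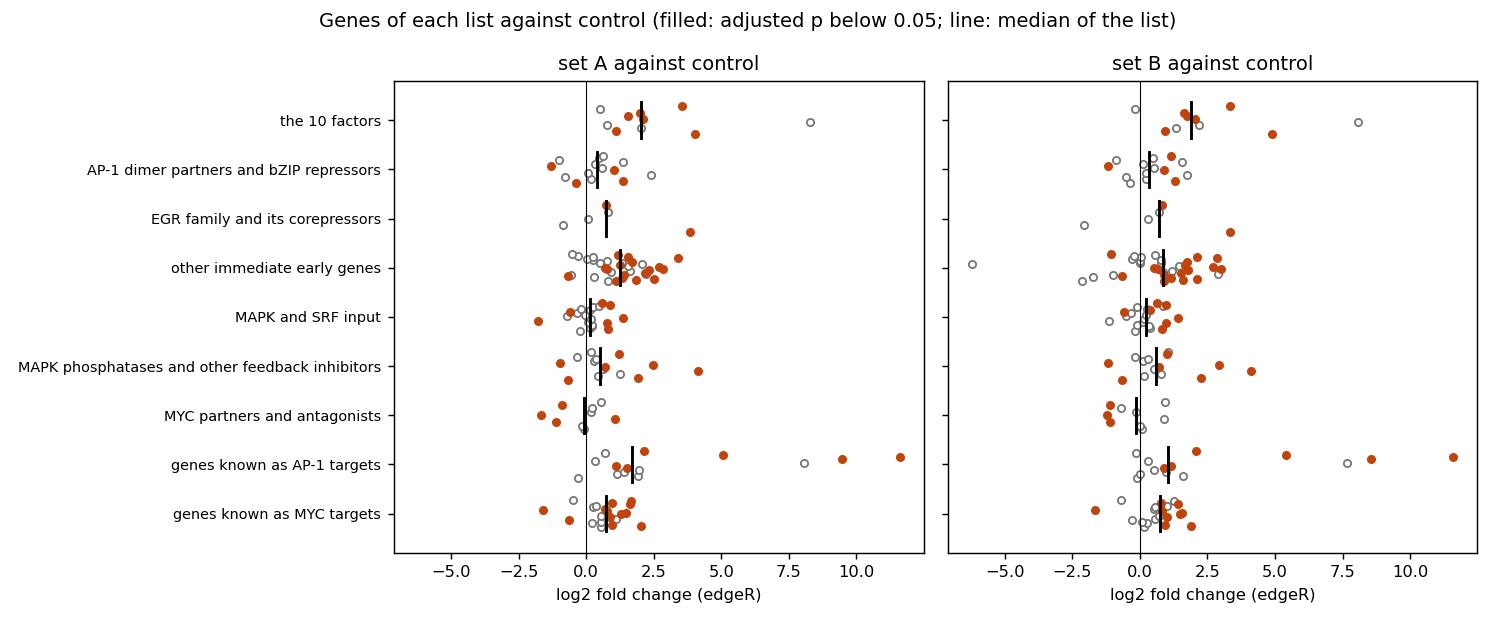
Fitted log2 fold change against the controls of each tested gene in the pathway lists, set A in 1 panel and set B in the other, with filled points for adjusted p under 0.05 and a bar at the median of each list; the rightmost points are Fosl1 and AP-1 targets with 0 counts in all controls, whose fitted values are no bound. The median of the 10 factors is 2.02 and 1.88, that of other immediate early genes 1.24 and 0.85, and that of MYC partners -0.07 and -0.15.

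Of 20 genes that feed the signal in (MAP kinases and serum response factor with its cofactors), 5 were higher and 2 lower in set A and 6 higher and 1 lower in set B, with medians of 0.16 and 0.24. Map3k1, a kinase upstream of JNK, rose by 1.38 and 1.40 on the log2 scale, from 39.1 ± 12.1 CPM to 101 ± 18.6 and 103 ± 42.4. Srf itself rose by 0.60 and 0.63 (adjusted p = 0.00958 and 0.00625), and the set A call was lost without its replicate 3 (0.0519). Its cofactor Mrtfb had 0.88 and 0.95 (adjusted p = 0.0382 and 0.0253), not past the threshold for set A without control 1, 2 or 4 or its replicate 1 or 4 (0.0553 to 0.148), nor for set B without control 2 or 4 or its replicate 3 or 4 (0.0543 to 0.0832). Map2k6, an activator of p38, fell by 1.76 in set A and did not pass in set B (-1.14, adjusted p = 0.0522), except without control 1 (0.0266) or replicate 3 of set B (0.0356), without the filter (0.0437) or with the 2 groups alone (0.0360). Of 14 MAP kinase phosphatases and feedback inhibitors, 5 were higher and 2 lower in each set. Dusp5, a nuclear ERK phosphatase, rose from 3.97 ± 0.86 CPM to 69.4 ± 21.1 and 68.2 ± 27.1 (log2 fold change 4.13 and 4.11), and Dusp8 (2.49 and 2.93, or 3.42 and 3.84 without control 1) and Dusp10 (1.94 and 2.25), which act on JNK and p38, rose too.

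Of 9 partners and antagonists of MYC, 1 was higher and 3 were lower in set A, and 0 were higher and 3 lower in set B. Max, the dimer partner of MYC, had 309 ± 28.2, 295 ± 21.1 and 327 ± 29.1 CPM in the controls, set A and set B and did not pass (adjusted p = 0.796 and 0.726). Mxi1, a MAX-binding antagonist, fell by 0.90 and 1.098 on the log2 scale, Mlx by 1.12 in each set and Mlxipl, the glucose-sensing ChREBP, by 1.68 and 1.20. Of 20 genes known as MYC targets, 10 were higher and 2 lower in set A and 8 higher and 1 lower in set B, with medians of 0.72 and 0.75. Cad, for pyrimidine synthesis, rose from 63.5 ± 14.5 CPM to 258 ± 77.9 and 234 ± 63.5 (2.02 and 1.88), and Nop58, of the box C/D snoRNP, rose by 1.47 and 1.55. Odc1, the rate-limiting enzyme of polyamine synthesis and a classical MYC target, fell from 1016 ± 342 CPM to 333 ± 56.1 and 325 ± 97.9 (-1.61 and -1.65, adjusted p = 4.83e-05 and 3.80e-05).

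Of 14 tested genes known as AP-1 targets, 6 were higher and 0 lower in each set, and the median log2 fold change was 1.71 for set A and 1.06 for set B. Spp1, for osteopontin, rose from 16.7 ± 2.45 CPM to 563 ± 114 and 712 ± 174 (5.08 and 5.41), and Vim, an intermediate filament of mesenchymal and dedifferentiated cells, rose by 2.15 and 2.08. No gene of any of these lists passed the threshold between the sets. Markers of other cell types moved with these groups. The summed level of 5 stromal and muscle markers was 597 to 790 CPM in the controls, 1338 to 3559 for set A and 1650 to 2911 for set B, where Col1a1 and Acta2 were higher in each set and Pdgfrb, Pdgfra and Myh11 did not pass. The log2 fold changes of Myh11 were -0.20 and -0.10 and those of Pdgfra -0.41 and -0.53, and the median of the 5 was 0.40 and 0.19. The summed level of 8 leukocyte markers was 44.7 to 66.7 CPM in the controls, 9.45 to 26.4 for set A and 13.2 to 34.2 for set B, with S100a8 and Cd79a at 0. Most of that sum was Csf1r, a macrophage receptor, at 52.1 CPM in the controls against 13.5 and 10.5 CPM. Cd3e, a T cell receptor chain, had 1.83 CPM in the controls and 0 counts in all 8 ischemic kidneys (adjusted p = 0.0412 and 0.0472), calls that were lost without any 1 of the kidneys compared (0.0593 to 0.151) and, in set B, with no filter (0.0527). Ptprc, carried by all leukocytes, had 2.96 CPM in the controls against 3.84 and 4.39 CPM and did not pass, and the median log2 fold change of the 5 tested markers was -0.0058 and 0.57. Summed proximal tubule markers ran from 6903 to 7691 CPM in the controls, 731 to 1326 for set A and 424 to 1391 for set B. Of 6 markers of the thick ascending limb and distal nephron, Slc12a1 (-3.07 and -2.56) and Calb1 (-1.76 and -2.04) were lower in each set on the log2 scale, and 4 did not pass. Slc12a1 was -3.19 in set B without its replicate 4, and Calb1 was -2.36 in set A without its replicate 4. Of 4 tested endothelial markers, with medians of -0.71 and -0.76, 0 passed in set A and Tek was lower in set B (-1.47, adjusted p = 0.00224). In set A, Tek had -0.84 (0.0696), which passed without replicate 3 of set A (0.0353), with no filter (0.0308), with the 2 groups alone (0.0368) and with limma-trend (0.0371). The part of these shifts in the values of the 10 factors was not tested.

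Across the 8 ischemic kidneys, log2 CPM of the 10 factors gave 45 pairs of genes, each compared by an exact two-sided permutation test of pairings. By Pearson's r, 5 pairs had p under 0.05 and 3 passed after Benjamini-Hochberg adjustment over the 45 pairs, and no pair passed by Spearman's rho. Junb and Jund were positively related (r = 0.88, exact permutation p = 0.00191, adjusted p = 0.0430; rho = 0.88, exact permutation p = 0.00724, adjusted p = 0.163), with r = 0.79 without the 2 kidneys farthest from the median of Junb, 0.75 within set A and 0.99 within set B. Fosb and Myc were opposed (r = -0.89, exact permutation p = 0.00322, adjusted p = 0.0484; rho = -0.81, exact permutation p = 0.0218, adjusted p = 0.245), with r = -0.76 without 2 kidneys. Fosl1 and Egr1 were also opposed (r = -0.92, exact permutation p = 2.98e-04, adjusted p = 0.0134; rho = -0.95, exact permutation p = 0.00149, adjusted p = 0.0670), but Fosl1 was at 0 counts in 3 of these 8 kidneys. Jun and Egr1, often induced together, had r = 0.72 (exact permutation p = 0.0417, adjusted p = 0.358; rho = 0.83, exact permutation p = 0.0154, adjusted p = 0.231).

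The gene whose log2 CPM was most like a given factor over all 12 kidneys, among 9356 genes, was Ptprn for Myc (r = 0.99), Nav2 for Atf3 (0.98), Fndc4 for Jun (0.98), Akt1 for Junb (0.98), Sytl2 for Fosl2 (0.97) and B230120H23Rik for Egr1 (0.94). The separation of control from ischemic kidneys is part of each of these values. Over the 8 ischemic kidneys, among 9354 genes, the most like gene was Asb3 for Myc (0.96), Scnn1g for Atf3 (0.98), Cope for Jun (0.95), Mink1 for Junb (0.98), Cdc23 for Fosl2 (0.96), Itm2b for Jund (0.99) and Foxc2 for Egr1 (0.98). No factor had the same most like gene in both searches. These are descriptions over kidneys that share library preparation and scaling, chosen as the highest of many values.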

How the data were processed

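RNA from 12 mouse kidneys (4 controls, 4 of ischemia set A, 4 of ischemia set B) was sequenced from stranded mRNA libraries. The values the authors deposited are raw counts per gene, made with HTSeq from STAR alignments to mm10 and not normalized. Versions, annotation release and strand setting are not given in the sources used here. All columns were mapped to samples by the labels' descriptions.

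Counts were analysed with edgeR 4.0.16 (R 4.3.3): default low-count filter (minimum count 10, minimum total 15), TMM, and 1 fit of all 12 kidneys with two-sided quasi-likelihood F-tests and Benjamini-Hochberg adjustment over 11664 genes (threshold 0.05). Standard errors and 95% intervals came from that fit. Single factors were also compared by exact permutation tests of CPM. Exon lengths and gene positions were taken from GENCODE on mm10 and promoter sequences from RefSeq.

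The 10 factors and all lists were chosen with earlier results of these data known. Named were every factor, up to 3 genes of each pathway list past the threshold with the largest mean absolute change and a mean log2 CPM of at least 1, listed partners and related early genes (Dusp1, Nab2, Max, Ier3, Klf4, Nr4a1, Zfp36 and Btg2), and the most correlated genes (2 genes under this rule are not reported here). Srf, the check genes and the cell markers singled out were chosen after their values were seen. In simulated counts for set A against control, run on 11664 genes, 127 of 200 genes with a log2 change of 2 were recovered, 0 with the wrong sign, and 7 other genes were called.

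Alternatives were DESeq2 1.42.0, limma-trend (limma 3.58.1), RLE size factors, no filter, a filter on CPM (above 1 in 4 or more kidneys), the 2 compared groups alone, the replicate number as a block, and leaving out each kidney. Replicate libraries differed by more than sampling noise, so none was counted as a duplicate. Floors of counts cover counting error only. The intervals of log2 fold changes came from the edgeR fit and include the spread between kidneys.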

Additional observations from a re-analysis of the deposited data

Results flagged for a closer look

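A kidney was looked at again where its gap to the nearest other kidney of its group was large for the range of the group (Dixon's ratio, 95% level). Of 29 groups of 4 values tested for the 10 factors, 2 were picked out, and chance picks out about 1 in 20. Fosl2 in the second kidney of set A was 209 CPM (ratio 0.883), below the other 3 kidneys of its set and still above all controls. Jun in control 1 was 37.2 CPM (ratio 0.836), above the other 3 controls and below all ischemic kidneys. Without that kidney of set A, or without that control, Fosl2 and Jun kept their calls in each set that was compared.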

How the results depend on the processing

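Fosl2, Jun, Junb, Atf3 and Myc passed the threshold in both sets under all 15 alternatives, and Egr1 did so in set A. The number of factors called ranged from 6 to 7 in set A and from 5 to 7 in set B, and was 0 between the sets throughout. The calls of Egr1 in set B and of Fosl1 changed as given beside their values, so that without the fourth kidney of set B the 6 factors called in that set held Fosl1 and not Egr1. Directions turned for 7 differences, none of which had passed. When 1 kidney was left out, Jund in set B against control ranged from -0.45 to 0.032 (above 0 without the second kidney of set B), Zfp36 from -0.57 to 0.11 (above 0 without the third) and Myh11 from -0.40 to 0.073 (above 0 without the first). Ptprc ranged from -0.018 to 1.04 in set A and from -0.48 to 1.23 in set B (below 0 without the third kidney of the set), and was -0.17 and -0.48 with the replicate block and, in set B, -0.64 with limma-trend. Between sets, Egr1 ranged from -0.37 to 0.11 (above 0 without the third kidney of set A) and Fosl1 from -0.66 to 1.44 (above 0 without the second kidney of set A, and 0.19 without the fourth of set B); Fosl1 was 0.83 with limma-trend and 1.18 with the replicate block. The count of all genes called between the sets, 1 in the reported fit (587 with an unadjusted p under 0.05), was 27 with DESeq2, 0 with limma-trend, 6 without a filter, 0 with the 2 groups alone, and 0 to 6 when 1 kidney was left out; the cause was not tested. Same-numbered kidneys did not deviate together (correlations of -0.055 to 0.045), so the numbers were not taken to pair samples; with the replicate block, 2491, 2531 and 1 genes were called in the 3 comparisons, and 6, 6 and 0 of the 10 factors, while Mrtfb in set A (adjusted p = 0.0683), Synpo in set B (0.0726) and Cd3e in both (0.128 and 0.140) lost their calls and Tek in set A passed (0.0131). Fos, Fosb, Fosl1 and Atf3 had 0 counts in some kidneys, where a level under 3 counts cannot be measured.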
